A study of Danio rerio with 6 samples.

Results

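Described here are 36 of the genes of mitochondrial fatty acid oxidation and its control in the deposited zebrafish liver table of 21589 genes. They were taken by name: the acyl-CoA synthetases of the acsl and acsm families, the carnitine palmitoyltransferases, the acyl-CoA dehydrogenases, the enzymes of the later steps of the cycle, the electron transfer flavoproteins, the pyruvate dehydrogenase kinases and ANGPTL4. RNA came from livers of zebrafish (Danio rerio) larvae 7 days after fertilization, with 3 libraries from larvae carrying a foxn3 transgene and 3 from wild-type siblings. The series asks which liver mRNAs differ between these sibling groups, and its title concerns how liver uses glucose. The sources used here do not state the promoter that drives the transgene, the foxn3 sequence it carries or the number of larvae behind a library. Whether libraries were made from separate clutches or pools is not said in the labels, so p-values measure the spread between these libraries only, which may be technical.

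Long-chain fatty acids enter the pathway when a synthetase joins them to coenzyme A. Carnitine palmitoyltransferase 1 on the outer mitochondrial membrane then hands the acyl group to carnitine, which is the controlled step of entry, and carnitine palmitoyltransferase 2 returns it to coenzyme A inside. In the matrix each turn of the cycle oxidizes, hydrates, oxidizes again and cleaves the chain, and the first oxidation passes its electrons through the electron transfer flavoprotein to the respiratory chain. Pyruvate dehydrogenase kinases switch off the enzyme that commits pyruvate to oxidation, so the kinases set the choice between sugar and fat as fuel. In liver the pathway is best known for supplying energy and ketone bodies during fasting.

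The name of the set held for most of its members but not for all of them as strictly mitochondrial or as oxidation enzymes. In mammals the acsl proteins sit largely on the endoplasmic reticulum and the outer mitochondrial membrane, acad8 and acadsb act in the breakdown of branched-chain amino acids, ACAD9 also helps to assemble respiratory complex I, and ANGPTL4 is a secreted inhibitor of lipoprotein lipase. Matrix enzymes is used below as a label for the dehydrogenases, the later steps, decr1 and the electron carriers. It groups genes by step, and where each protein sits was not measured. Several members share a name in the table and are told apart here by chromosome. CPT1A is the gene on chromosome 7, and its namesake on chromosome 25 is called cpt1ab after the reference table. acsl1b is the ACSL1 entry of chromosome 14, acsl1 that of chromosome 1, hadhaa the hadha entry of chromosome 20 and HADHA that of chromosome 17. The pair of pdk2 genes is named with chromosomes 12 and 19. Reads of 50 bp can match both copies of such a pair, and the sources used here do not say how such reads were assigned. cpt2, acad11, acsl1b and acsl4a had spans that overlapped those of other genes, 7 of them in the case of cpt2, so their counts may hold reads of a neighbour.

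Total counts ran from 7732478 to 12550954 per library, and all 36 genes passed the filter on low counts among 19573 genes tested. foxn3 stood at 18.9 to 43.1 CPM (counts relative to the scaled library total) in wild-type libraries and at 167 to 220 CPM in transgenic libraries, which fits the labels. Its log2 fold change was 2.74 ± 0.30, which did not pass edgeR's quasi-likelihood test (adjusted p of 0.11) and passed DESeq2 (adjusted p of 8.9e-15). Hepatocyte markers, 12 genes that include tfa and the fibrinogen genes, took 8.25 to 9.64% of the counts of each library, so the label of liver held. Markers of other organs were also present, and none of them was at 0 in a library. The exocrine pancreas list took 0.307 to 1.08% of the counts, the skeletal muscle list 0.066 to 0.185% and the intestine list 0.63 to 0.818%, most of it from apoa4. The 36 genes together took 0.544, 0.571 and 0.627% of the counts of wild-type libraries 1 to 3 and 0.566, 0.611 and 0.607% of those of transgenic libraries 1 to 3.

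In wild-type liver the most abundant genes of the set were matrix enzymes, and the least abundant were long-chain synthetases, with an overlap between these classes: the synthetase gene acsl5 at 25.2 ± 27.7 FPKM lay above ACAD9 at 21.6 ± 4.13 and acadsb at 15.7 ± 1.74 FPKM, with 11.8, 57.1 and 6.88 FPKM for acsl5 in wild-type libraries 1 to 3. Levels between genes are given as the authors' FPKM, which are counts scaled to gene length and to the reads of the library. The highest mean in wild-type liver was that of acaa2, the thiolase that cleaves the chain in the last step, with 466 ± 65.6 FPKM (SD, n = 3), at place 227 among all genes of the table. acadm, the medium-chain acyl-CoA dehydrogenase, followed with 298 ± 65.0 FPKM. etfb and etfa, the subunits of the electron transfer flavoprotein, had 226 ± 25.2 and 180 ± 17.4 FPKM, and hadh, the hydroxyacyl-CoA dehydrogenase, had 201 ± 16.4 FPKM. The PDK2 gene of chromosome 12 stood in the same range, with 201 ± 20.3 FPKM, so the order of hadh, PDK2 of chromosome 12 and etfa was within their spread. In all, 14 of the 36 genes were among the first 1000 of the table by wild-type FPKM. At the low end were acsl4l with 1.05 ± 0.335, acsl3a with 1.18 ± 0.236 and ACSL6 with 1.82 ± 0.930 FPKM. These 3 long-chain synthetase genes had 6 to 64 counts in a library, so their values carry the largest counting error.

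**Figure D1:**
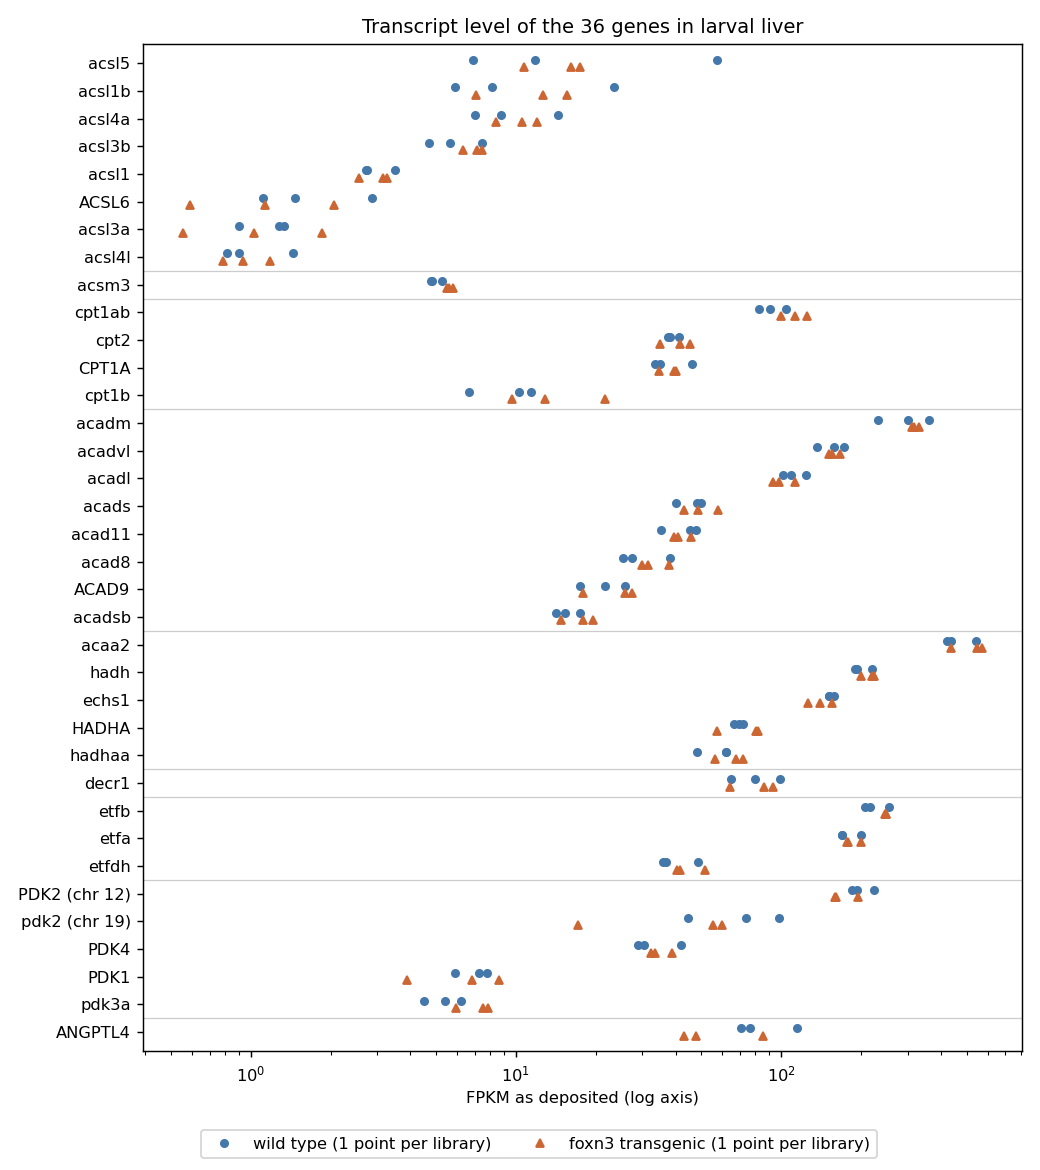
FPKM of each of the 36 genes (log axis), with 1 point per library, circles for wild-type and triangles for foxn3-transgenic livers, ordered within each role by mean level and with lines between roles. Most matrix enzymes, cpt1ab and PDK2 of chromosome 12 lie to the right, and the acsl genes and acsm3 lie mostly below 20 FPKM, with acsl5 and acsl1b of wild-type library 2 standing out at 57.1 and 23.5 FPKM.

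Between transgenic and wild-type livers, 0 of the 36 genes passed edgeR's quasi-likelihood test at a Benjamini-Hochberg adjusted p of 0.05 over all genes, where percent called over all 19573 genes was 0%. The adjusted p was 1 for each of the 36. DESeq2 called 0 of them too, with 0.00511% of all genes called, the single gene foxn3. At an unadjusted p under 0.05 edgeR had 0 of the 36 genes, against 2.25% of all genes, DESeq2 had 1, cpt1b, against 2.06%, limma-voom had 1, pdk3a, against 1.8%, and edgeR with a replicate block had 3 against 3.25%. Log2 fold changes (transgenic minus wild type) ran from -0.70 for acsl5 to 0.70 for cpt1b. They were positive for 25 of 36 genes, or 69.4%, against 50.6% of all genes tested, with a median of 0.11 against 0. With unscaled totals 23 were positive and the median was 0.05, while that of all genes was -0.05. Among the more abundant genes of the table, those with at least 50 CPM on average, the positive share was 64.1% of 2309 genes, and it was 73.9% of the 23 genes of the set at that level. The authors' deposited table lists 25 positive and 11 negative log2 ratios for the 36 genes, with a smallest adjusted p of 0.9998, and lists 0 for the exon test of each.

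The number of positive values moved with single libraries. Without transgenic library 2 19 of 36 values were positive, with a median of 0.01, and without wild-type library 3 there were 28 with a median of 0.22. The TMM scaling factor, which divides CPM, was 0.848 in transgenic library 2 and 0.967 to 1.07 elsewhere. It also had the highest share of exocrine pancreas markers, 1.08%, with all 13 of that list highest there, and 9 of the 12 hepatocyte markers were highest there in CPM. The part of these in the result was not tested.

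The groups did not overlap for 4 of the 36 genes, cpt1ab, pdk3a, acsm3 and acadsb, or 11.1%, against 6.45% of all genes tested. All 4 were higher in transgenic livers, a direction seen for 3.31% of all genes. With unscaled library totals in place of TMM, 1 of the 36 kept its groups apart, acsm3, against 5.64% of all genes. The 4 differences were small, with log2 fold changes from 0.20 to 0.45, and each had an unadjusted p above 0.05 in edgeR's quasi-likelihood test.

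**Figure D2:**
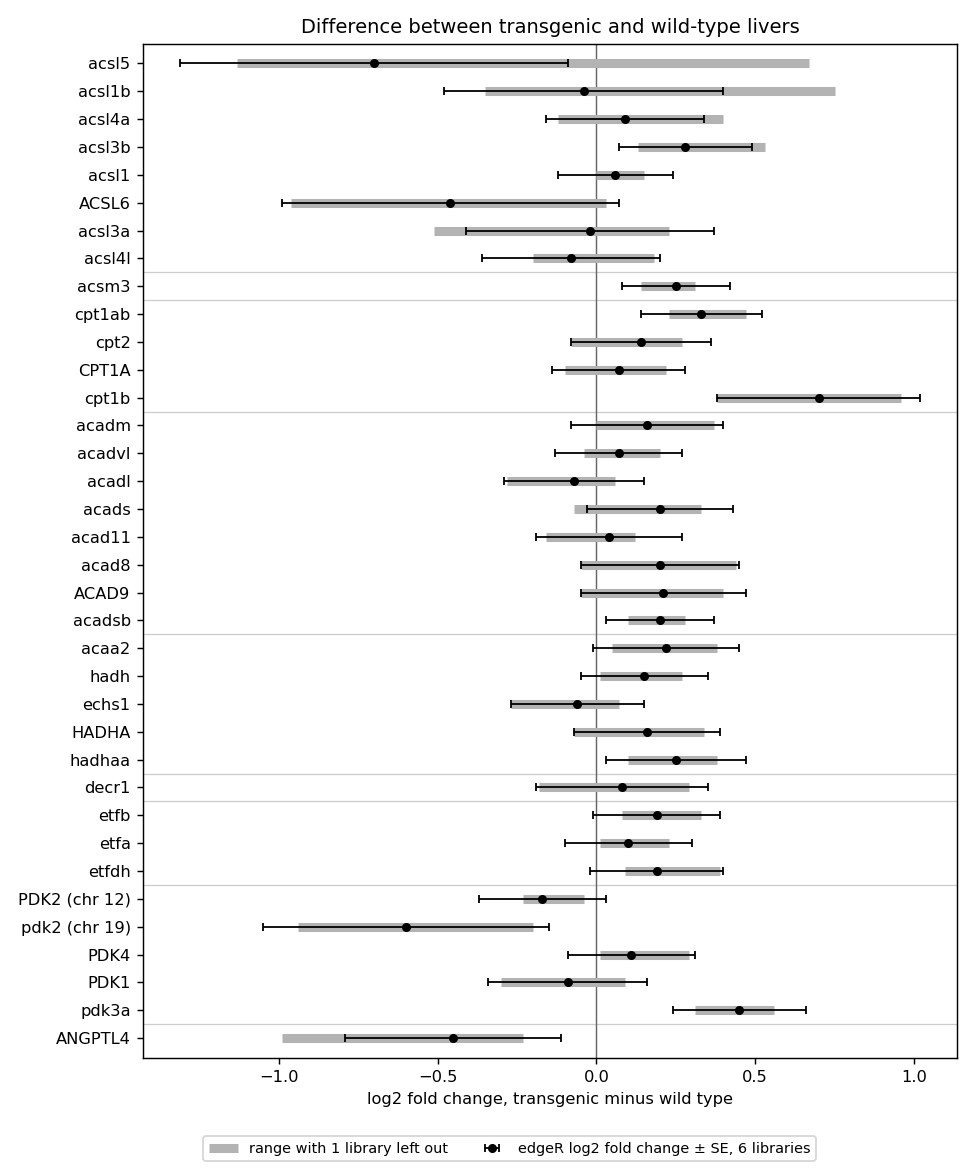
edgeR log2 fold change of each of the 36 genes, transgenic minus wild type, as a point with its SE, and as a grey band the range of the value when any 1 of the 6 libraries is left out. Of the 36 points, 29 lie between -0.2 and 0.3, and 20 of the 36 bands include 0. cpt1b, pdk3a and cpt1ab lie to the right of that range, and acsl5, pdk2 of chromosome 19, ACSL6 and ANGPTL4 lie to the left.

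Of the 8 long-chain acyl-CoA synthetase genes, 3 had positive and 5 negative values, at a median log2 fold change of -0.03 and 0 of 8 past the test. acsl5, whose product is known in mammals for its high level in the small intestine, had 35.5, 166 and 22.1 CPM in wild-type libraries 1 to 3 and 51.9, 39.0 and 47.3 CPM in transgenic libraries 1 to 3. Wild-type library 2 was 3.21-fold above the next library, and the other wild-type libraries lay below all transgenic ones. The log2 fold change of acsl5 was -0.70 ± 0.61 (SE) with all libraries and turned to 0.67 without wild-type library 2 (edgeR, unadjusted p 0.025, adjusted p 1).

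acsl1b showed the same high library. It had 18.5, 51.7 and 14.2 CPM in wild-type and 35.0, 19.6 and 27.8 CPM in transgenic libraries 1 to 3. Its log2 fold change was -0.04 ± 0.44, and 0.75 without wild-type library 2. acsl4a, a synthetase that prefers arachidonate in mammals, was likewise highest there, at 51.9 CPM against 26.1 to 43.6 CPM in the others. Intestinal markers moved with these genes. The peptide transporter gene slc15a1b had 154 CPM in wild-type library 2 and 11.6 to 34.6 CPM elsewhere, the intestinal cadherin gene cdh17 had 134 against 19.8 to 45.3 CPM, the brush border gene vil1l had 261 against 36 to 107 CPM, and the ileal bile acid binding gene fabp6 had 150 against at most 3.48 CPM. The fatty acid uptake gene cd36 had 141 CPM there and 16.1 to 42.0 CPM elsewhere. In all, 6 of the 8 intestine markers were highest in wild-type library 2, and so were 15 of 15 skeletal muscle and 6 of 6 heart markers. The summed intestine list was 0.7, 0.81 and 0.788% of counts in the wild-type group and 0.63, 0.818 and 0.671% in the transgenic group, and the abundant genes apoa4 and zgc:194131 were highest elsewhere, in transgenic library 2 and wild-type library 3. Their part in the acsl values was not tested. In bulk tissue, fewer cells of a type and less RNA per cell cannot be told apart.

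**Figure D3:**
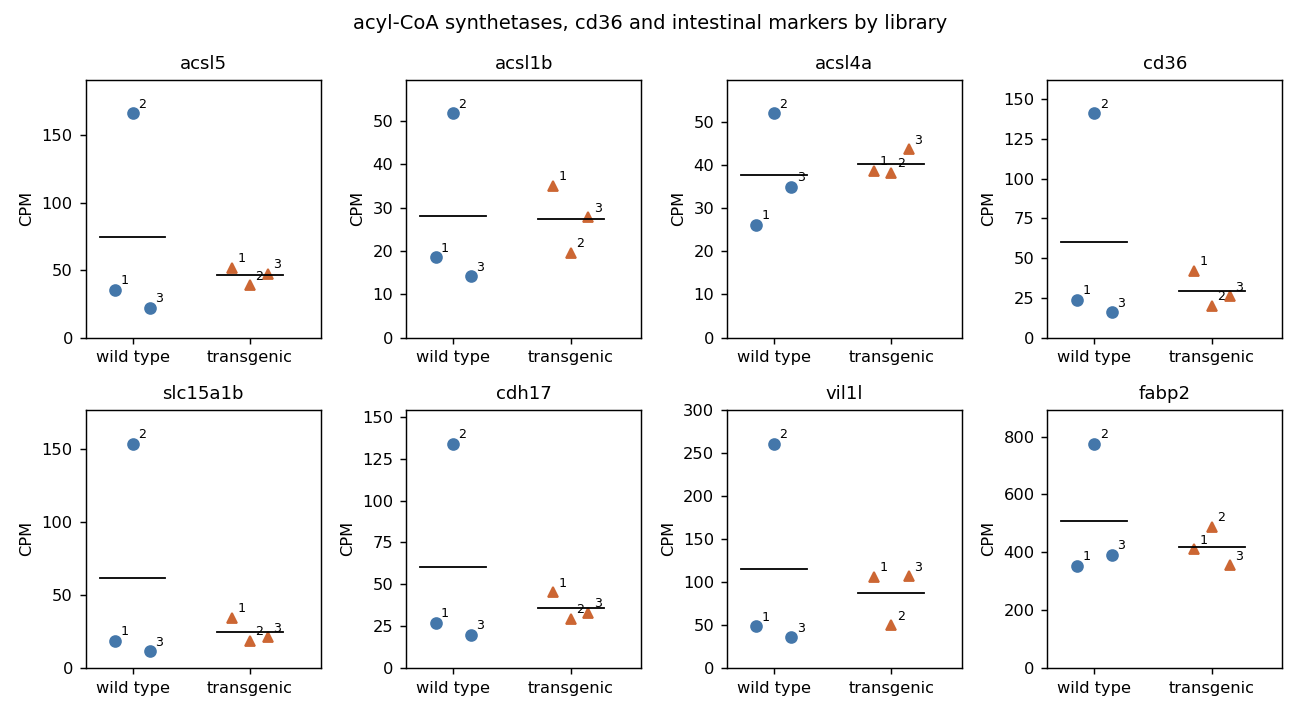
CPM of acsl5, acsl1b, acsl4a and cd36 and of the intestinal markers slc15a1b, cdh17, vil1l and fabp2, with 1 point per library numbered 1 to 3 and a line at the mean of each group of 3. Wild-type library 2 is the highest point in all 8 panels, at 166 CPM for acsl5 and 154 CPM for slc15a1b. Of the 8 intestine markers, 6 were highest in that library. The exceptions, apoa4 and zgc:194131, are not drawn and were highest in transgenic library 2 and wild-type library 3.

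Among the other synthetase genes, acsl3b had 22.9, 26.6 and 38.7 CPM in wild-type and 34.4, 37.4 and 35.3 CPM in transgenic libraries 1 to 3, so that wild-type library 3 lay above all transgenic libraries and the other wild-type libraries below them. Its log2 fold change was 0.28 ± 0.21, or 0.53 without wild-type library 3. acsl1 was the steadiest of the 36 genes, with 12.9 to 15.8 CPM over the 6 libraries and a log2 fold change of 0.06 ± 0.18. acsl3a (1.41 to 3.80 CPM), acsl4l (3.08 to 4.92 CPM) and ACSL6 (0.564 to 2.41 CPM) had overlapping groups, with log2 fold changes of -0.02, -0.08 and -0.46.

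acsm3, which activates medium-chain acids, was 1 of the 4 genes with groups apart. It had 19.5, 17.1 and 19 CPM in wild-type and 21.1, 24.7 and 20.1 CPM in transgenic libraries 1 to 3. The gap between the groups, from 19.5 to 20.1 CPM, was small beside the range within the transgenic group. The log2 fold change of acsm3 was 0.25 ± 0.17, and 0.14 to 0.31 when single libraries were left out.

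In carnitine entry 4 of 4 genes were positive in fold change, at a median of 0.24 and 0 of 4 past the test, and with unscaled totals CPT1A was at 0. cpt1ab (ENSDARG00000062054, chromosome 25, 24324093 to 24367523 in Zv9) had 299, 263 and 367 CPM in wild-type and 369, 401 and 399 CPM in transgenic libraries 1 to 3. The transgenic libraries lay close together and just above wild-type library 3. The means were 310 ± 52.5 CPM and 390 ± 17.7 CPM (SD, n = 3 each), which is a log2 fold change of 0.33 ± 0.19 (SE) or 1.26-fold, for which edgeR gave an unadjusted p of 0.12. When single libraries were left out the value stayed between 0.23 and 0.47. On the deposited FPKM scale, which is not TMM-scaled, wild-type library 3 with 104 FPKM lay above transgenic library 2 with 100 FPKM.

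cpt1b, whose mammalian counterpart is the muscle form of the enzyme, had the smallest unadjusted p of the 36. It is on chromosome 18 (7811522 to 7832169 in Zv9). Its values were 32.6, 18.4 and 31.5 CPM in wild-type and 61.5, 44.9 and 27.0 CPM in transgenic libraries 1 to 3. Transgenic libraries 1 and 2 lay above all wild-type libraries, while transgenic library 3 lay below wild-type libraries 1 and 3. Its log2 fold change was 0.70 ± 0.32 or 1.62-fold, for which edgeR gave an unadjusted p of 0.054 (adjusted p of 1). It was 0.38 without transgenic library 1 and 0.96 without transgenic library 3. Of the skeletal muscle markers, 15 of 15 were highest in wild-type library 2, where cpt1b was lowest, and the list took 0.0726, 0.185 and 0.066% of counts in the wild-type group and 0.119, 0.0713 and 0.0958% in the transgenic group. Transgenic library 1, the highest for cpt1b, had the highest share of the transgenic libraries, and the part of muscle RNA in the cpt1b values was not tested.

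CPT1A and cpt2 showed overlapping groups. CPT1A had 80.6 to 116 CPM in wild-type and 85.9 to 122 CPM in transgenic libraries, with a log2 fold change of 0.07 ± 0.21. cpt2 had 119, 113 and 137 CPM in wild-type and 108, 172 and 126 CPM in transgenic libraries 1 to 3, with a log2 fold change of 0.14 ± 0.22 that was -0.08 without transgenic library 2.

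Ratios within a library do not depend on the scaling of libraries. Of the FPKM of the 3 cpt1 genes, cpt1ab made up 61.1, 67.4 and 69.8% in wild-type libraries 1 to 3 and 66.8, 65.5 and 71.7% in the transgenic ones. CPT1A made up 31.2, 27.2 and 23.3% and then 20.5, 26.1 and 22.7%, and cpt1b the small remainder, 5.41 to 7.66% and 5.58 to 12.8%. cpt1ab was thus the main cpt1 transcript in every library, and the shares of the groups overlapped for all 3 genes. The ratio of cpt1ab to cpt2 FPKM was 2.21 to 2.53 in wild-type and 2.20 to 3.24 in transgenic livers.

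**Figure D4:**
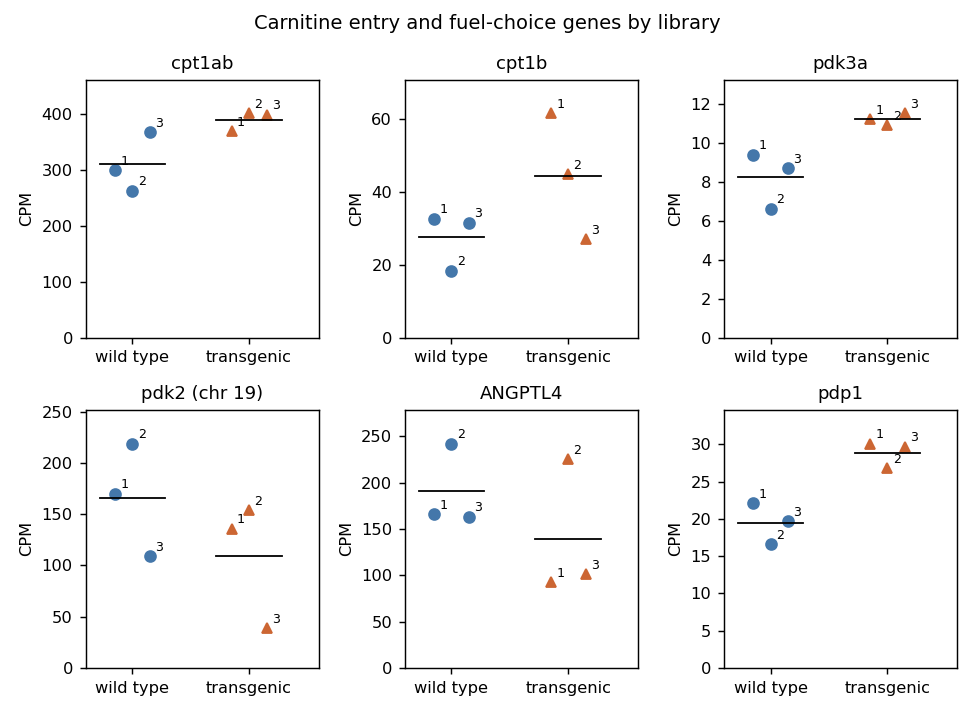
CPM of cpt1ab, cpt1b, pdk3a, pdk2 of chromosome 19, ANGPTL4 and the pyruvate dehydrogenase phosphatase gene pdp1, with 1 point per library numbered 1 to 3 and a line at the mean of each group of 3. In TMM-scaled CPM the groups lie apart for cpt1ab, pdk3a and pdp1 and overlap for the others. Among these others, transgenic library 3 is low for pdk2 at 38.5 CPM, and transgenic libraries 1 and 3 are low for ANGPTL4 at 92.2 and 101 CPM.

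The first oxidation in the matrix is carried out by dehydrogenases that differ in the chain length they take. Of the 8 genes of this family, 7 had positive fold changes, with a median of 0.18, values from -0.07 to 0.21 and 0 past the test, and with unscaled totals acad11 turned to -0.03. acadvl, which takes very long chains, had 554, 459 and 643 CPM in wild-type and 572, 643 and 528 CPM in transgenic libraries 1 to 3, a log2 fold change of 0.07 ± 0.20. acadm had 470, 591 and 780 CPM in wild-type and 625, 814 and 624 CPM in transgenic libraries 1 to 3, a log2 fold change of 0.16 ± 0.24. For both genes the groups overlapped across most of their range. acadsb had 32.3, 25.2 and 30 CPM in wild-type and 32.6, 33.0 and 34.9 CPM in transgenic libraries 1 to 3, so the groups lay apart by the narrow gap from 32.3 to 32.6 CPM, with a log2 fold change of 0.20 ± 0.17. In deposited FPKM, wild-type library 1 with 17.5 lay above transgenic library 2 with 14.8.

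The other dehydrogenases overlapped between groups. acadl (long chains) had a log2 fold change of -0.07 ± 0.22, acads (short chains) 0.20 ± 0.23, acad8 0.20 ± 0.25, ACAD9 0.21 ± 0.26 and acad11 0.04 ± 0.23. Within the family acadm held the largest share of FPKM in every library, 35.9 to 43.8% in wild-type and 42.5 to 43.4% in transgenic libraries, followed by acadvl with 19.4 to 24.6% over all 6. The share of acadl was 15.9, 15.8 and 14.9% in wild-type libraries 1 to 3 and 13.0, 14.5 and 13.3% in the transgenic ones, so these ranges lay apart. That share was picked out after its values were seen, among the 8 genes of this family. Shares were also computed for the cpt1, kinase, acsl and trifunctional subunit genes.

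In the steps from hydration to cleavage, 4 of 5 genes were positive in fold change, at a median of 0.16 and 0 of 5 past the test. acaa2 had 807, 752 and 1066 CPM in wild-type and 799, 1225 and 1029 CPM in transgenic libraries 1 to 3, a log2 fold change of 0.22 ± 0.23. hadh had 282, 268 and 341 CPM in wild-type and 288, 389 and 316 CPM in transgenic libraries 1 to 3, a log2 fold change of 0.15 ± 0.20. hadhaa, which encodes an alpha subunit of the trifunctional protein that carries 3 of the activities for long chains, had 166, 125 and 178 CPM in wild-type and 150, 221 and 188 CPM in transgenic libraries 1 to 3, a log2 fold change of 0.25 ± 0.22. In each of these 3 genes transgenic library 2 was highest and the groups overlapped. The other copy, HADHA, had a log2 fold change of 0.16 ± 0.23, and the enoyl-CoA hydratase gene echs1 had -0.06 ± 0.21. The copies of the trifunctional subunit were near equal in FPKM, with 42.0 to 49.6% of their sum from hadhaa over the 6 libraries.

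decr1, the reductase that lets chains with certain double bonds enter the cycle, had 113, 133 and 183 CPM in wild-type and 110, 197 and 145 CPM in transgenic libraries 1 to 3. Each group spanned most of the other, and the log2 fold change was 0.08 ± 0.27.

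The carriers of electrons had 3 of 3 positive values. etfa had 265, 255 and 331 CPM in wild-type and 273, 338 and 302 CPM in transgenic libraries 1 to 3. etfb had 264, 266 and 345 CPM in wild-type and 312, 380 and 307 CPM in the transgenic libraries. Both were high in wild-type library 3 and transgenic library 2, and their groups overlapped. The log2 fold changes were 0.10 ± 0.20 for etfa, 0.19 ± 0.20 for etfb and 0.19 ± 0.21 for the dehydrogenase etfdh, which passes the electrons on to ubiquinone. The FPKM of etfa was 0.783 to 0.82 times that of etfb in wild-type and 0.714 to 0.803 times in transgenic livers. A steady ratio was not particular to these subunits of a heterodimer. hadh, which is not their partner, had 193, 190 and 220 FPKM in wild-type libraries 1 to 3, where etfa had 170, 169 and 200 FPKM. In transgenic libraries 1 to 3 hadh had 200, 220 and 223 FPKM and etfa 177, 179 and 200 FPKM.

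As a block, the 17 matrix enzymes (the dehydrogenases, the later steps, decr1 and the electron carriers) had 15 positive fold changes with a median of 0.16, with acad11 negative under unscaled totals, and their levels by library were alike. Their score, the mean of log2(CPM + 0.5) relative to the mean of 6 libraries, was -0.15, -0.23 and 0.18 in wild-type libraries 1 to 3 and -0.16, 0.35 and 0 in the transgenic ones. Wild-type library 3 lay above transgenic libraries 1 and 3. In CPM 15 of the 17 were highest in transgenic library 2, where 21.7% of all genes tested were highest. Of the 17, 16 had a mean of at least 50 CPM, and 15 of those 16 were highest there, against 53.5% of all genes at that level. With unscaled totals 3 of the 17 were highest there, 7 in wild-type library 3 and 6 in transgenic library 3. The block made up 0.407, 0.406 and 0.492% of the counts of wild-type and 0.424, 0.476 and 0.476% of those of transgenic libraries 1 to 3. The highest library exceeded the lowest by 1.33-fold for etfa to 1.97-fold for ACAD9.

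**Figure D5:**
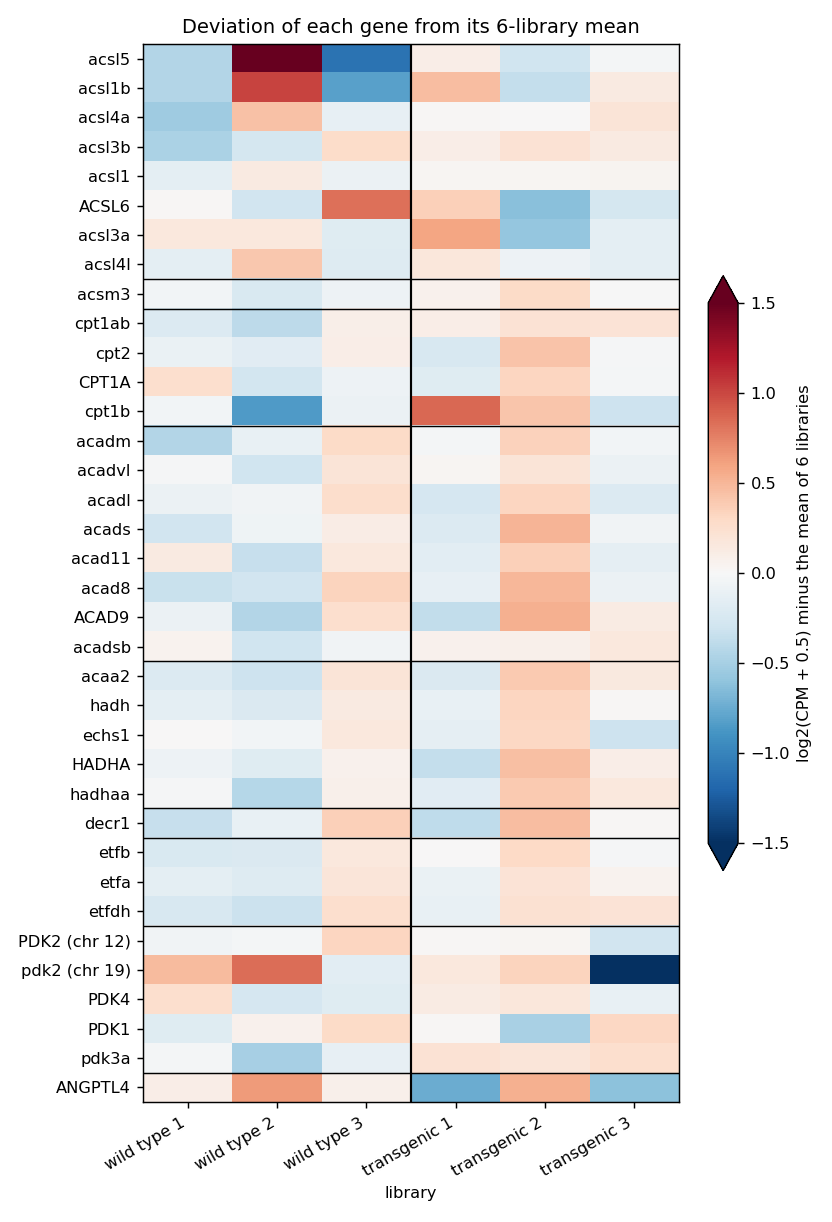
Deviation of each of the 36 genes from its mean over 6 libraries, as log2(CPM + 0.5), with libraries in columns (wild type 1 to 3, then transgenic 1 to 3), genes in rows by role and colours that saturate at 1.5. The matrix enzymes form a block that is blue in wild-type library 2 and red in wild-type library 3 and transgenic library 2, while acsl5 and acsl1b are red in wild-type library 2 and pdk2 of chromosome 19 is dark blue in transgenic library 3.

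The pyruvate dehydrogenase kinases, which restrain sugar oxidation, did not follow the matrix enzymes. Of the 5 genes, 2 had positive and 3 negative fold changes, with a median of -0.09 and 0 past the test. PDK2 of chromosome 12 had 221, 224 and 285 CPM in wild-type and 231, 233 and 187 CPM in transgenic libraries 1 to 3, with overlapping groups and a log2 fold change of -0.17 ± 0.20. It was the main kinase transcript in every library, with 57.9 to 72.1% of the FPKM of the 5 genes in wild-type and 62.2 to 70.6% in transgenic livers.

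The pdk2 gene of chromosome 19 (6297799 to 6310636 in Zv9) was the most variable kinase. It had 170, 219 and 109 CPM in wild-type and 136, 154 and 38.5 CPM in transgenic libraries 1 to 3. Transgenic library 3 was 2.84-fold below the next lowest library. The log2 fold change was -0.60 ± 0.45, or -0.20 without transgenic library 3 and -0.94 without transgenic library 2. Its FPKM relative to PDK2 of chromosome 12, a ratio free of library scaling, was 0.4, 0.508 and 0.199 in wild-type libraries 1 to 3 and 0.305, 0.344 and 0.107 in the transgenic ones.

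pdk3a (chromosome 24, 25552271 to 25567555 in Zv9) had 9.38, 6.62 and 8.70 CPM in wild-type and 11.2, 10.9 and 11.5 CPM in transgenic libraries 1 to 3, from 65 to 133 counts. The transgenic libraries were close together and above all wild-type libraries in CPM. On the deposited FPKM scale, which is not TMM-scaled, wild-type library 1 with 6.19 FPKM lay above transgenic library 2 with 5.93 FPKM. The means were 8.23 ± 1.44 and 11.2 ± 0.296 CPM (SD, n = 3 each), which is a log2 fold change of 0.45 ± 0.21 or 1.37-fold, for which edgeR gave an unadjusted p of 0.058 (adjusted p of 1). It stayed between 0.31 and 0.56 when single libraries were left out. pdk3a made up 1.35 to 1.98% of kinase FPKM in wild-type and 2.30 to 3.43% in transgenic livers, a small part of the family. That these shares lay apart was read after the values were seen. PDK4, known in mammals as the kinase most raised by fasting, had 35.9 to 51.3 CPM in wild-type and 39.7 to 48.2 CPM in transgenic libraries, a log2 fold change of 0.11 ± 0.20. PDK1 had 9.64 to 13.5 CPM and 7.71 to 13.8 CPM, a log2 fold change of -0.09 ± 0.25.

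ANGPTL4, which lowers the uptake of circulating triglyceride, had 166, 242 and 163 CPM in wild-type and 92.2, 225 and 101 CPM in transgenic libraries 1 to 3. Transgenic libraries 1 and 3 lay below all wild-type libraries, while transgenic library 2 lay among them. The log2 fold change was -0.45 ± 0.34, and edgeR gave an unadjusted p of 0.22. Without transgenic library 2 it was -0.99 (edgeR, unadjusted p of 0.0032, adjusted p of 1), and without transgenic library 1 it was -0.23. That unadjusted p was the smallest among 467 values recomputed for single genes. Its fit left out the transgenic library that lay among the wild-type ones. lpl, the lipase that ANGPTL4 inhibits, had 942, 1340 and 951 CPM in wild-type and 703, 1328 and 650 CPM in transgenic libraries 1 to 3. For lpl too, transgenic libraries 1 and 3 lay below all wild-type libraries and transgenic library 2 among them. The means were 1078 CPM in wild-type and 893 CPM in transgenic livers, and the log2 fold change was -0.27 ± 0.30.

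Genes next to the pathway were looked at in 7 lists, and 0 of their genes passed the test over all genes. In each list 0 to 1 gene had an unadjusted p under 0.05 in edgeR, against 2.25% of all genes. Groups lay apart for 0 to 8.33% of a list, against 6.45% of all genes. Positive values made up 50.6% of all genes tested, and 64.1% of those with at least 50 CPM on average. For pyruvate dehydrogenase, its phosphatases and the pyruvate carrier, a list drawn up by name, 11 of 12 genes tested had positive values, with a median of 0.10. The positive ones include dld (log2 fold change 0.21), which in zebrafish names the Notch ligand gene deltaD and not a part of this complex. The subunit gene is the separate entry dldh, with 0.12. pdp1, the phosphatase that undoes the kinases' action, had 22.1, 16.6 and 19.7 CPM in wild-type and 30.1, 26.8 and 29.7 CPM in transgenic libraries 1 to 3. The groups lay apart in this TMM-scaled measure. Transgenic library 2, the lowest of its group here, had the TMM factor of 0.848, and separation with unscaled totals is not given for pdp1. The log2 fold change of pdp1 was 0.57 ± 0.18 (edgeR, unadjusted p of 0.0097 and adjusted p of 1), and pdp2 had 0.46 ± 0.30. In peroxisomal oxidation, which shortens very long chains, 13 of 15 genes were positive at a median of 0.13, led by decr2 with 0.58 ± 0.27 and ehhadh with 0.29 ± 0.21. In the list of related acyl-CoA dehydrogenases and branched-chain or odd-chain routes, 16 of 18 were positive at a median of 0.18. Of these, gcdh had 0.27 ± 0.23 and pcca 0.21 ± 0.19. Transgenic library 2 was highest for 17 of these 18 genes, and for 11 of the 11 with a mean of at least 50 CPM, where the share over all genes at that level was the 53.5% given above.

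For uptake, carnitine and acyl-CoA handling, 10 of 17 genes were positive at a median of 0.05. dbi, the acyl-CoA binding protein gene, had 253, 265 and 275 CPM in wild-type and 308, 365 and 383 CPM in transgenic libraries 1 to 3, with the groups apart and a log2 fold change of 0.41 ± 0.18 (edgeR, unadjusted p of 0.048 and adjusted p of 1). cd36 had -1.04 ± 0.69, with the high wild-type library 2 given above. Ketone body genes were positive in 5 of 8 at a median of 0.02, with 0.60 ± 0.28 for aacs, which uses acetoacetate for lipid synthesis, and -0.28 ± 0.25 for oxct1a. Lipid-sensing regulators were positive in 12 of 23 at a median of 0.09, with 0.40 ± 0.27 for the AMP kinase gene prkaa2 and 0.30 ± 0.21 for creb3l3a. pparaa, which encodes a fatty acid receptor that activates this pathway in mammals, had a log2 fold change of 0.33 ± 0.38. Its values were 16.2, 16.8 and 13.1 CPM in wild-type and 10.8, 33.6 and 13.9 CPM in transgenic libraries 1 to 3. Only transgenic library 2 lay above the wild-type libraries. Lipolysis genes and lipase partners were positive in 7 of 12 at a median of 0.01, with 1.07 ± 0.28 for the lipid droplet gene CIDEC (edgeR, unadjusted p of 0.0037 and adjusted p of 1) and 0.47 ± 0.27 for mgll.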

How the data were processed

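Per the labels, stranded total RNA libraries were sequenced from 1 end for 50 bp. Reads were aligned with Novoalign to Zv9 and compared with DESeq2, per the submitters' processing notes; the sources used here give neither versions nor whether counting used strand. The authors deposited unnormalized counts of alignments overlapping a gene by at least 1 bp, per the file headers. FPKM values are the authors', scaled to gene length and library total, per the file headers (when recomputed from counts and the table's gene length, they differed by at most 0.2%). The deposited log2 ratios and scores (an adjusted p-value as 10 times its negative log10) come from the authors' comparison, per the file headers, and the deposited regularized log2 values were not used. Coordinates are as the table gives them, with no statement of a start at 0 or 1.

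Counts were tested with edgeR 4.0.16 in R 4.3.3 (TMM, filterByExpr, glmQLFit and glmQLFTest, no covariate, Benjamini-Hochberg over 19573 genes, threshold 0.05). The SE is the absolute fold change over the root of F. CPM are relative to TMM-scaled totals. Depth of 7732478 to 12550954 counts limits genes of few counts most. Alternatives used DESeq2 1.42.0, limma 3.58.1 (voom), other scaling and filters, left-out libraries and a replicate block. The edgeR procedure was tested on simulated counts with large known changes and a dispersion set low for these genes. That run therefore does not measure its power in these data. Chi-square per gene between libraries of 1 group was 18.8 to 32.9, so none was treated as a duplicate.

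The 36 genes, the lists and the rule for named genes were chosen with earlier results of these data known. Every gene of the set is named. Values by library are given for the most abundant pair of each role, the 10 smallest unadjusted p-values, genes with groups apart and genes with 1 library above 2 times or below 0.5 times all others; of each list the 2 of smallest p are named. lpl and pparaa were added for their roles. 34 of the 36 IDs had a symbol in the reference table. The 3 genes that this table names acsl2, cpt1a2b and ECI1 carry other names in the deposited table and were not taken.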

Additional observations from a re-analysis of the deposited data

How the results depend on the processing

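Of the 36 genes, 0 passed an adjusted p of 0.05 under any alternative tried (edgeR with DESeq2 size factors, unscaled totals, other filters, a replicate block or a library left out, DESeq2, and limma-voom), and the smallest adjusted p was 1. Over all genes DESeq2 and the replicate block called 1 gene each, and leaving out libraries called 0 to 1. Genes of the set at an unadjusted p under 0.05 numbered 1 by DESeq2, against 2.06% of all genes, and 1 by limma-voom, against 1.8%. The replicate block had 3 (cpt1b, pdk2 of chromosome 19 and ANGPTL4), against 3.25% of all genes. With a library left out there were 0 to 2, and the share over all genes was not computed there. The labels do not say whether replicate numbers pair the libraries. The correlations of deviations between libraries of the same number were 0.344, -0.107 and 0.156. Between libraries of different numbers they ran from -0.327 to 0.194. With 3 libraries per group these values cannot decide whether the libraries were paired. The median log2 fold change ran from 0.01 to 0.22 with a library left out, and positive values from 19 to 28. Groups lay apart for 1 gene with unscaled totals and for 5 to 12 with a library left out, where fewer libraries make that more frequent (12 to 17.4% of all genes). Without wild-type libraries 1, 2 and 3 in turn there were 5, 8 and 12 of the 36, against 16.5, 15 and 16.1% of all genes. Without transgenic libraries 1, 2 and 3 in turn there were 6, 7 and 5, against 17, 17.4 and 12%. These counts were chosen after seeing the data.

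Of 467 fold changes recomputed for single genes, 34 turned sign, and 17 genes never did. Beyond left-out libraries, acsl1b turned to 0.14 by limma-voom and 0.18 under the replicate block, CPT1A to 0 and acad11 to -0.03 with unscaled totals. With a library left out, values ran from 0 to 0.15 for acsl1, -0.35 to 0.75 for acsl1b, -0.51 to 0.23 for acsl3a, -0.12 to 0.40 for acsl4a, -0.20 to 0.18 for acsl4l, -1.13 to 0.67 for acsl5, -0.96 to 0.03 for ACSL6, -0.10 to 0.22 for CPT1A and -0.08 to 0.27 for cpt2. The ranges were -0.04 to 0.20 for acadvl, -0.28 to 0.06 for acadl, -0.07 to 0.33 for acads, -0.05 to 0.44 for acad8, -0.05 to 0.40 for ACAD9, -0.16 to 0.12 for acad11, -0.07 to 0.34 for HADHA, -0.27 to 0.07 for echs1, -0.18 to 0.29 for decr1 and -0.30 to 0.09 for PDK1. Of these turns 12 came without transgenic library 2 and 7 without wild-type library 2; the cause was not tested. ACSL6 had no value under the filter of 1 CPM in all libraries. Few counts limit ACSL6, acsl3a and acsl4l most.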

Other observations

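Genes of glucose and fasting metabolism were read beside pdk2 of chromosome 19 and were chosen after their values were seen. pck1, a gluconeogenic enzyme gene, had 879, 1042 and 470 CPM in wild-type and 807, 1249 and 479 CPM in transgenic libraries 1 to 3, with a log2 fold change of 0.08 ± 0.38. igfbp1a, which fasting raises, had 676, 484 and 343 CPM in wild-type and 656, 424 and 228 CPM in transgenic libraries 1 to 3, with a log2 fold change of -0.20 ± 0.38. Library 3 was the lowest of its group for pdk2 of chromosome 19, pck1 and igfbp1a in both groups. The share of all genes with this pattern was not computed. PDK4 had it in the transgenic group only, with 37.6 CPM in wild-type library 3 and 35.9 CPM in wild-type library 2. gck, the glucokinase gene, had 273, 167 and 196 CPM in wild-type and 80.6, 62.3 and 272 CPM in transgenic libraries 1 to 3, with a log2 fold change of -0.62 ± 0.49. LPIN1 (ENSDARG00000020239), a lipid phosphatase gene, had 223, 398 and 86.5 CPM in wild-type and 51.8, 429 and 30.1 CPM in transgenic libraries. It was highest where ANGPTL4 was highest in each group, a likeness read after the values were seen. The other LPIN1 entry (ENSDARG00000076096) did not share it. That entry was lowest in transgenic library 2, at 3.76 CPM, and among wild-type libraries highest in library 3, at 6.02 CPM.

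Genes left out by name had overlapping groups. dci, ECI1 in the reference table and an isomerase for unsaturated chains, had 77.2 to 113 CPM in wild-type and 76.5 to 126 CPM in transgenic livers. PECI had a log2 fold change of 0.02 ± 0.22, and cpt1a2b and acsl2 had 0.14 ± 0.26 and -0.30 ± 0.32.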
